A study of Mus musculus with 46 samples.

Results

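Plekho1, Vps45 and Car14 lie in a neighborhood of 9 protein-coding genes on mouse chromosome 3, which holds in order of position Rprd2, Prpf3, Mrps21, Ciart, Aph1a, Car14, Anp32e, Plekho1 and Vps45. The 9 genes were chosen, out of 56854 genes shared by both count tables, because they lie at about 95.6 to 96.1 Mb of GRCm38 and because Plekho1, Vps45 and Car14 had been seen to be high together after disruption of Arid1a. They were thus chosen by position and by the count values of the Arid1a-disrupted against the control tumors, and those values are given here as a description with no test. Tests are given for the other genotypes, although the hSS2 comparisons share the 13 control tumors with that contrast.

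RNA was sequenced from 46 whole synovial sarcomas, 1 tumor from each of 46 mice. All tumors, the controls included, carried a human SS18::SSX fusion switched on from the Rosa26 locus by a cell-permeable Cre protein injected into the limb, so that no cell type promoter restricted where the fusion arose. The hSS2 tumors expressed SS18::SSX2 and the hSS1 tumors SS18::SSX1. In hSS2 there were 13 control tumors, 8 with conditional knockout of Pbrm1 (Pbrm1-fl), 8 of Arid1a (Arid1a-fl) and 8 of Arid1b (Arid1b-fl). In hSS1 there were 5 control and 4 Pbrm1-fl tumors. The animals were of mixed C57BL/6-svJ strain and of both sexes. Pbrm1 encodes a subunit of the PBAF chromatin remodeler, whereas Arid1a and Arid1b encode alternative subunits of the CBAF remodeler. Levels are given as CPM, counts relative to library sizes scaled by the trimmed mean of M-values, and the hSS2 and hSS1 tables were scaled separately.

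The neighborhood holds genes of unrelated roles. Plekho1 encodes a membrane-binding pleckstrin homology protein that interacts with casein kinase 2. Vps45 encodes a Sec1/Munc18 protein that works with SNARE proteins in traffic through endosomes, and Car14 encodes a carbonic anhydrase anchored in the plasma membrane. Anp32e is a chaperone that removes the histone variant H2A.Z from chromatin, and Aph1a is a subunit of gamma-secretase, the protease that cleaves Notch and amyloid precursor protein. Ciart, also called Chrono, is a repressor of the circadian clock, itself under clock control. Prpf3 belongs to the U4/U6 particle of the spliceosome, Mrps21 to the small subunit of the mitochondrial ribosome, and Rprd2 to the proteins that bind the tail of RNA polymerase II. Adjacent genes on a chromosome can share regulatory elements.

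The 9 genes span 298 kb. On GRCm38, Rprd2 (ENSMUSG00000028106) runs from 95760341 to 95818863 on the minus strand, and Prpf3 (ENSMUSG00000015748) from 95830124 to 95855885, Mrps21 (ENSMUSG00000054312) from 95862634 to 95871519 and Ciart (ENSMUSG00000038550) from 95878503 to 95882251 follow it on that strand. Aph1a (ENSMUSG00000015750) occupies 95893969 to 95898288 on the plus strand. Car14 (ENSMUSG00000038526) lies at 95897768 to 95904691 on the minus strand, and its end overlaps the end of Aph1a over 521 bp. Anp32e (ENSMUSG00000015749) occupies 95929246 to 95947390 on the plus strand and contains Gm43375, an annotated gene on the same strand, so reads in the shared stretch may have been split between them. Plekho1 (ENSMUSG00000015745) lies at 95988429 to 95996001 and Vps45 (ENSMUSG00000015747) at 95999832 to 96058466, both on the minus strand. The window from 95.6 to 96.1 Mb holds 27 annotated genes, of which 21 passed the filter on low counts and 9 are the genes described here, all of which passed it.

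The promoters of Vps45 and Car14 are shown because these genes were among the 3 with the largest differences in Arid1a-fl tumors. Each is 300 bases of RefSeq sequence of GRCm38.p6, from 250 bases before the start site to 50 bases from it, printed 5′ to 3′ on the minus strand, on which both genes lie. They lie at chr3:96058406-96058705 for Vps45 and chr3:95904636-95904935 for Car14. Capitals mark matches, on either strand, to 6 motifs: the E-box CACGTG, the AP-1 motif TGANTCA, the CCAAT box CCAAT, the GC box GGGCGG, the CRE TGACGTCA and the D-box TTATGTAA.
Vps45: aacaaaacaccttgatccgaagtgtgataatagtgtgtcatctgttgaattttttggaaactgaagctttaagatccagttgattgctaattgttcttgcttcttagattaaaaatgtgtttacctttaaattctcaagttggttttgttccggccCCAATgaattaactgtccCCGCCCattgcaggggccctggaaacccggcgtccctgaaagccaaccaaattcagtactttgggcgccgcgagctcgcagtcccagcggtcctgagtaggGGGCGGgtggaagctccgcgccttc
Car14: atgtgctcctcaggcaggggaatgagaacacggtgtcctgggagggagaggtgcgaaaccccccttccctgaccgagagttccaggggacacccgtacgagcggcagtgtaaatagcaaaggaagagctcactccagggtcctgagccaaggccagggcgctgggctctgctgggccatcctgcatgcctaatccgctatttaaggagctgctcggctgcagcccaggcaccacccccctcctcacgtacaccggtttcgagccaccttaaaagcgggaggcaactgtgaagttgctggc
Vps45 held 1 CCAAT box, 2 GC boxes and 13 CpG dinucleotides, and Car14 held 13 CpG dinucleotides and none of the 6 motifs. The median of the 32851 promoters in the table was 7 CpG dinucleotides, and 35.7% held a GC box and 37.4% a CCAAT box. The promoter of the chaperone gene Anp32e held 4 CCAAT boxes. That of the clock repressor Ciart held 3 E-boxes, a motif found in 7.15% of promoters and known as the binding site of the clock activators.

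Several libraries stood apart from their groups or labels. Total counts ranged from 10.1 to 21.3 M per tumor and the mitochondrial share from 1.47% to 3.76%. Arid1a itself was at 229 to 276 CPM in the 8 Arid1a-fl tumors and at 422 to 587 CPM in the hSS2 controls, except control replicate 9, which was at 238 CPM. Arid1b-fl replicate 6 was at 297 CPM for Arid1a where the other Arid1b-fl tumors were at 444 to 612 CPM. Pbrm1 was at 95.0 to 139 CPM in hSS2 Pbrm1-fl tumors against 171 to 316 CPM in controls, whereas Arid1b overlapped, at 111 to 347 CPM in Arid1b-fl tumors against 222 to 686 CPM. In hSS1, Pbrm1 was at 102 to 252 CPM in Pbrm1-fl tumors against 275 to 373 CPM in controls. Markers of synovial sarcoma cells were detected in every group, 8 of 8, with summed levels from 359 to 1913 CPM. Mouse numbers fell into separate ranges by genotype, so values against the controls of the same range are also given beside the calls that they end.

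**Figure D1:**
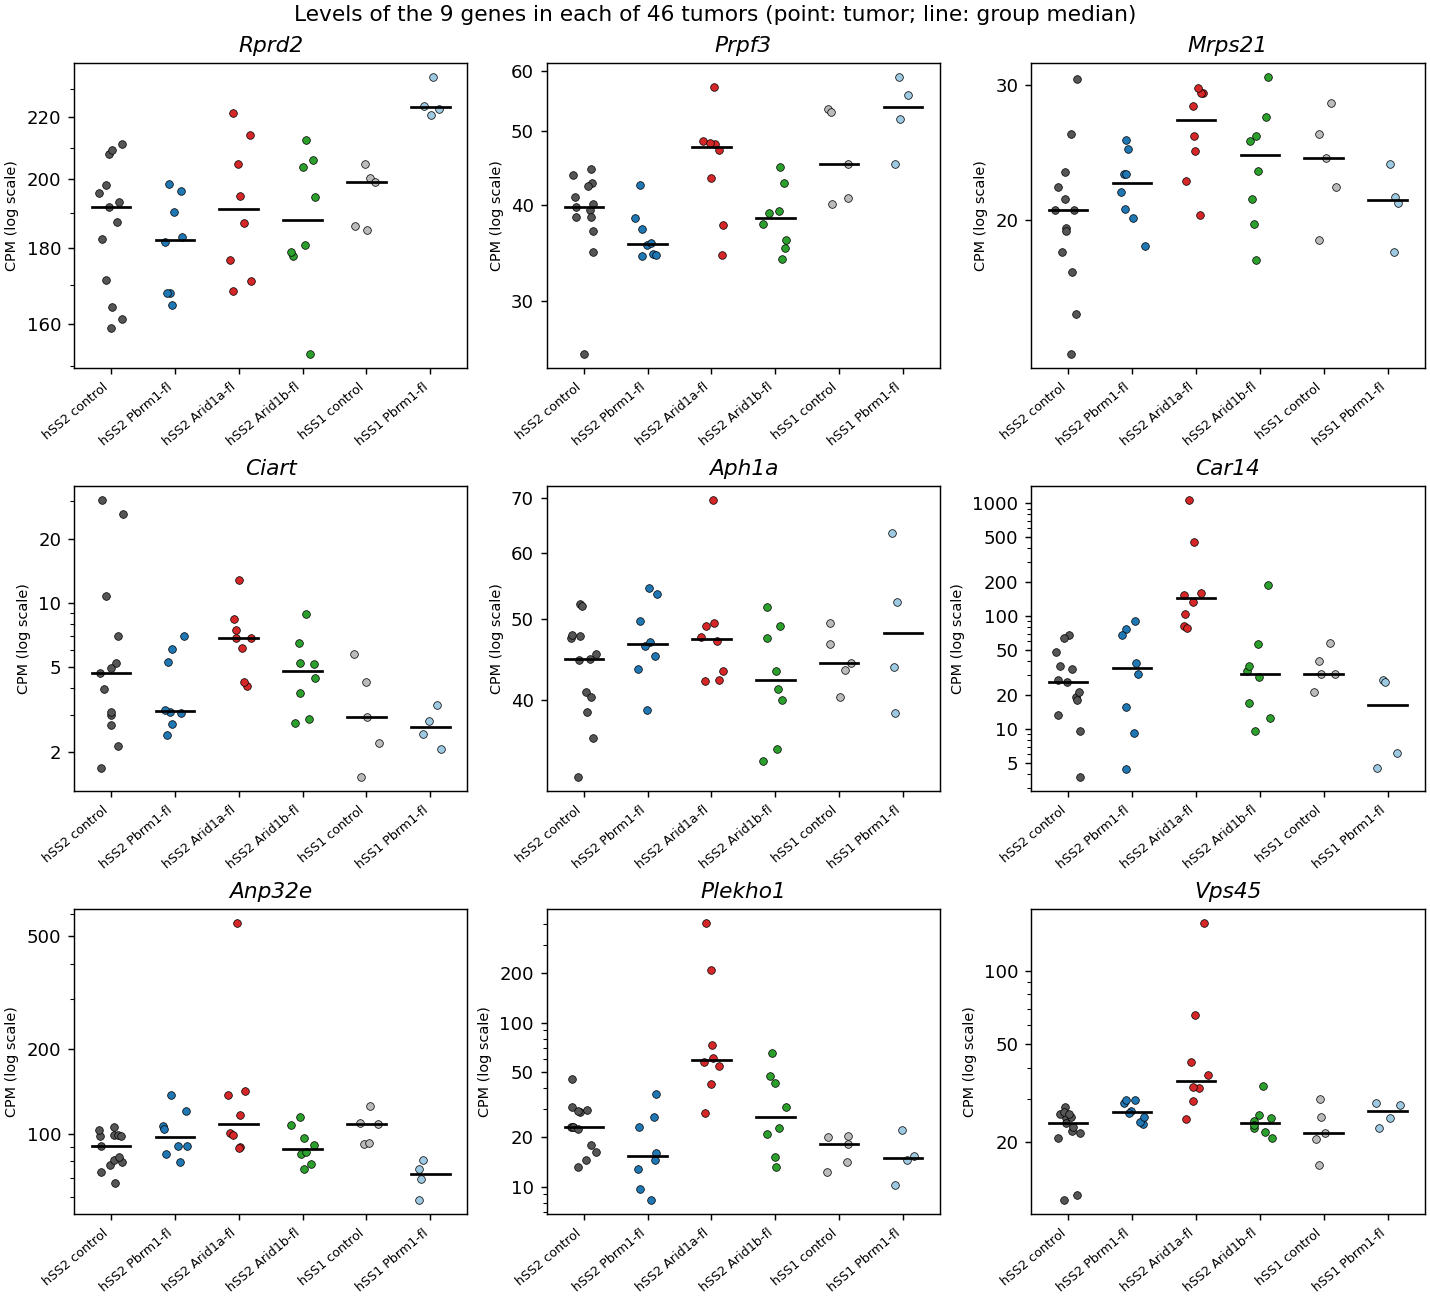
Levels of the 9 genes in 46 tumors. Each panel shows 1 gene, with CPM on a log axis, each point a tumor and each line a group median. The 8 hSS2 Arid1a-fl tumors lie above all 13 controls for Car14, with replicate 8 at 1072 CPM, and Arid1b-fl replicate 6 stands above its group at 190 CPM.

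Car14, Plekho1 and Vps45 were high in the Arid1a-fl tumors, by very different amounts from tumor to tumor. Car14 was at 82.6, 456, 159, 78.9, 135, 153, 105 and 1072 CPM in Arid1a-fl replicates 1 to 8, against 3.77 to 67.8 CPM with a median of 26.3 CPM in the 13 controls. All 8 Arid1a-fl tumors were above every control, with replicates 2 and 8 far above the other 6. Plekho1 was at 28.2, 211, 72.8, 42.3, 60.7, 57.7, 54.7 and 406 CPM, against 13.2 to 45.7 CPM with a median of 23.2 CPM in controls. For Plekho1, 6 of 8 tumors were above every control, and the same replicates 2 and 8 led. Vps45 was at 24.7, 65.9, 33, 33.6, 37.6, 29.2, 42.2 and 157 CPM, against 11.6 to 27.6 CPM with a median of 23.9 CPM in controls. Here 7 of 8 tumors were above every control, with replicate 1 within their range. Of all 20083 genes tested, 3.17% were called between Arid1a-fl and control tumors and 1.41% were called higher, and nothing is read from the counts above since this contrast chose the genes.

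The other 6 genes were closer to the controls. The H2A.Z chaperone gene Anp32e was at 142, 138, 100, 98.9, 117, 89.5, 88.9 and 556 CPM in Arid1a-fl replicates 1 to 8, against 67.1 to 106 CPM in controls. Replicate 8 was far above the rest, and 4 of 8 tumors were above every control. Aph1a, which overlaps Car14 at its end, was at 69.6 CPM in replicate 8 and at 42.1 to 49.5 CPM in the other 7 tumors, against 32.3 to 52.2 CPM in controls. The part of the reads in the shared 521 bp could not be told apart by strand, since the counting strand is not given in the sources used here. The splicing gene Prpf3 was at 34.4 to 57.1 CPM against 25.6 to 44.7 CPM, with 5 of 8 tumors above every control. Mrps21 was at 20.3 to 29.7 CPM against 13.4 to 30.5 CPM, and no tumor was above every control. The mean ± SD of Rprd2 was 192 ± 19.9 CPM over the 8 tumors and 187 ± 18.3 CPM over the 13 controls. Ciart was at 4.08 to 12.8 CPM against 1.69 to 30.4 CPM.

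On the log2 scale, the fitted difference between Arid1a-fl and control tumors was 3.22 (SE 0.57) for Car14, 2.26 (SE 0.37) for Plekho1 and 1.24 (SE 0.22) for Vps45. It was 0.90 (SE 0.22) for Anp32e, 0.35 (SE 0.11) for Mrps21, 0.22 (SE 0.08) for Prpf3, 0.15 (SE 0.09) for Aph1a, 0.04 (SE 0.07) for Rprd2 and -0.19 (SE 0.42) for Ciart. The median over the 9 genes was 0.35, and that over all genes tested was -0.04. Without Arid1a-fl replicates 2 and 8, a choice made after the values were seen, the difference was 1.99 for Car14, 1.12 for Plekho1, 0.59 for Vps45 and 0.27 for Anp32e. Without replicate 8 alone it was 2.48 for Car14, 1.63 for Plekho1, 0.76 for Vps45 and 0.32 for Anp32e. Against the 5 controls of the same mouse number range it was 3.01 for Car14, 2.59 for Plekho1, 1.57 for Vps45 and -1.15 for Ciart. Without control replicate 9, the control with low Arid1a, it was 3.20 for Car14, 2.26 for Plekho1 and 1.24 for Vps45.

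**Figure D2:**
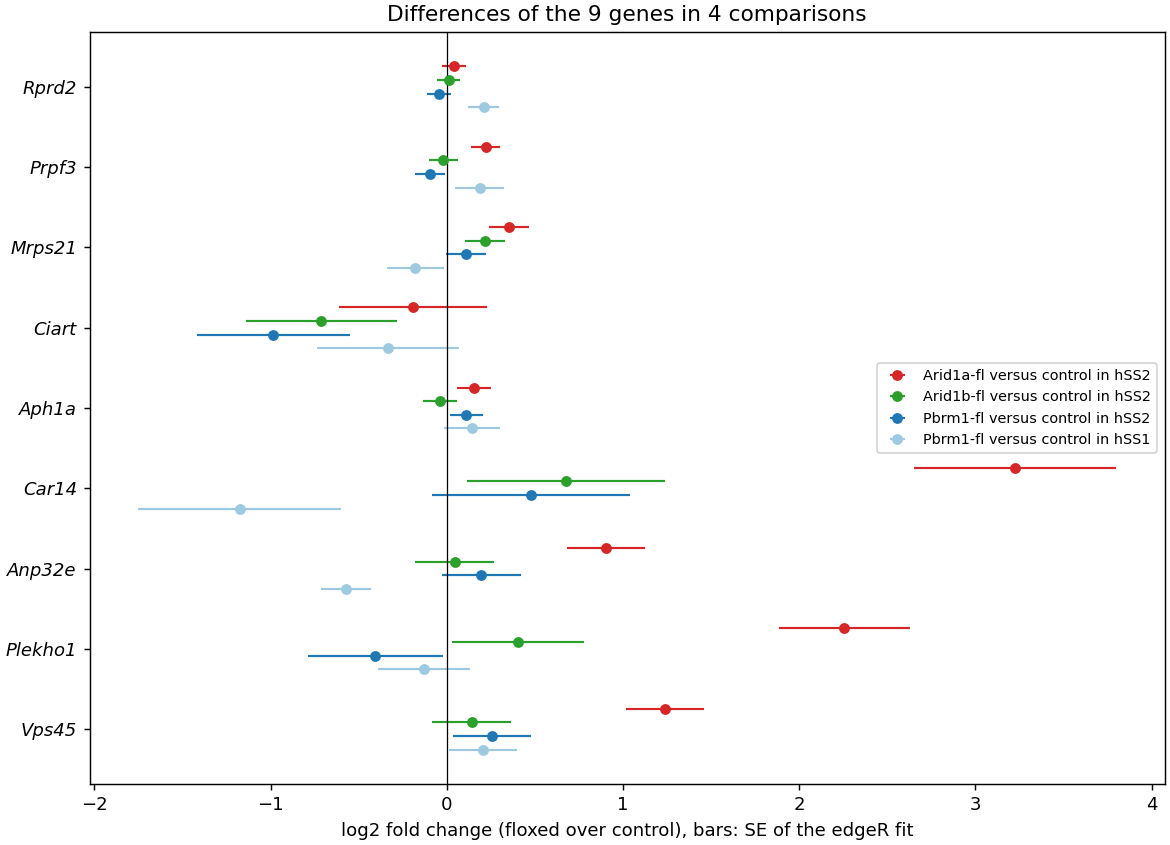
Differences of the 9 genes in 4 comparisons with control. Each point is a log2 fold change from the edgeR fit and each bar 1 SE. Car14 has the largest value in Arid1a-fl, 3.22, and the Arid1a-fl values chose the genes.

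Within the 2 leading tumors the ratio to control differed from gene to gene and did not follow their order on the chromosome. In Arid1a-fl replicate 8, Car14 was 40.6-fold, Plekho1 17.4-fold, Vps45 6.53-fold and Anp32e 6.13-fold over the hSS2 control median. Those 4 genes ranked 9, 31, 150 and 159 of 20083 genes by that ratio in this tumor, while Aph1a, next to Car14, was 1.55-fold and ranked 2631. In Arid1a-fl replicate 2, Car14 was 17.3-fold, Plekho1 9.06-fold and Vps45 2.75-fold, whereas Anp32e, which lies between Car14 and Plekho1, was 1.52-fold. The median log2 ratio in the other 6 Arid1a-fl tumors was 2.17 for Car14, 1.27 for Plekho1, 0.48 for Vps45, 0.14 for Anp32e and 0.01 for Aph1a. Anp32e was thus at 556 CPM in replicate 8 and at no more than 142 CPM in the other tumors, and Gm43375, the gene inside it, had a log2 ratio of 2.62 there and a median of 0.00 in the other 6 tumors. From the start of Car14 to the end of Vps45 the stretch covers 161 kb.

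Genes further along the chromosome did not share this height as a group, but 5 genes beyond Vps45 were high in Arid1a-fl replicate 8. Of 134 annotated genes within 1 Mb on either side, 90 were tested and 48 had a mean of at least 10 CPM. Over those 48 genes the median log2 ratio to the control median was 0.11 in Arid1a-fl replicate 8, with 5 genes over 1. The highest was Gm42743 at 2.03. Hist2h4, Hist2h2bb and Hist2h3b, genes of a histone cluster, were at 1.62, 1.44 and 1.40, and Mtmr11 was at 1.04. All 5 start 166 to 274 kb from the start of Plekho1, on the side of Vps45. Otud7b, which lies between Vps45 and Mtmr11, was at 0.43. In Arid1a-fl replicate 2 the median was -0.02 with 1 gene over 1, and over the median of the other 6 Arid1a-fl tumors it was 0.04 with 0 genes over 1. In those 6 tumors Hist2h3b, Hist2h2bb, Hist2h4, Gm42743 and Mtmr11 were at 0.65, 0.59, 0.54, 0.53 and 0.37, beside 0.48 for Vps45. The 5 other genes of the window from 95.6 to 96.1 Mb with at least 10 CPM ranged from -0.03 to 0.42 in replicate 8. Over the median of the other 6 tumors they ranged from -0.83 to 0.56. BC028528, a gene between Ciart and Aph1a with a mean of 2.72 CPM, was at 0.85 in replicate 8, 1.92 in replicate 2, 0.24 over the median of the other 6 tumors and 0.97 in Arid1b-fl replicate 6.

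**Figure D3:**
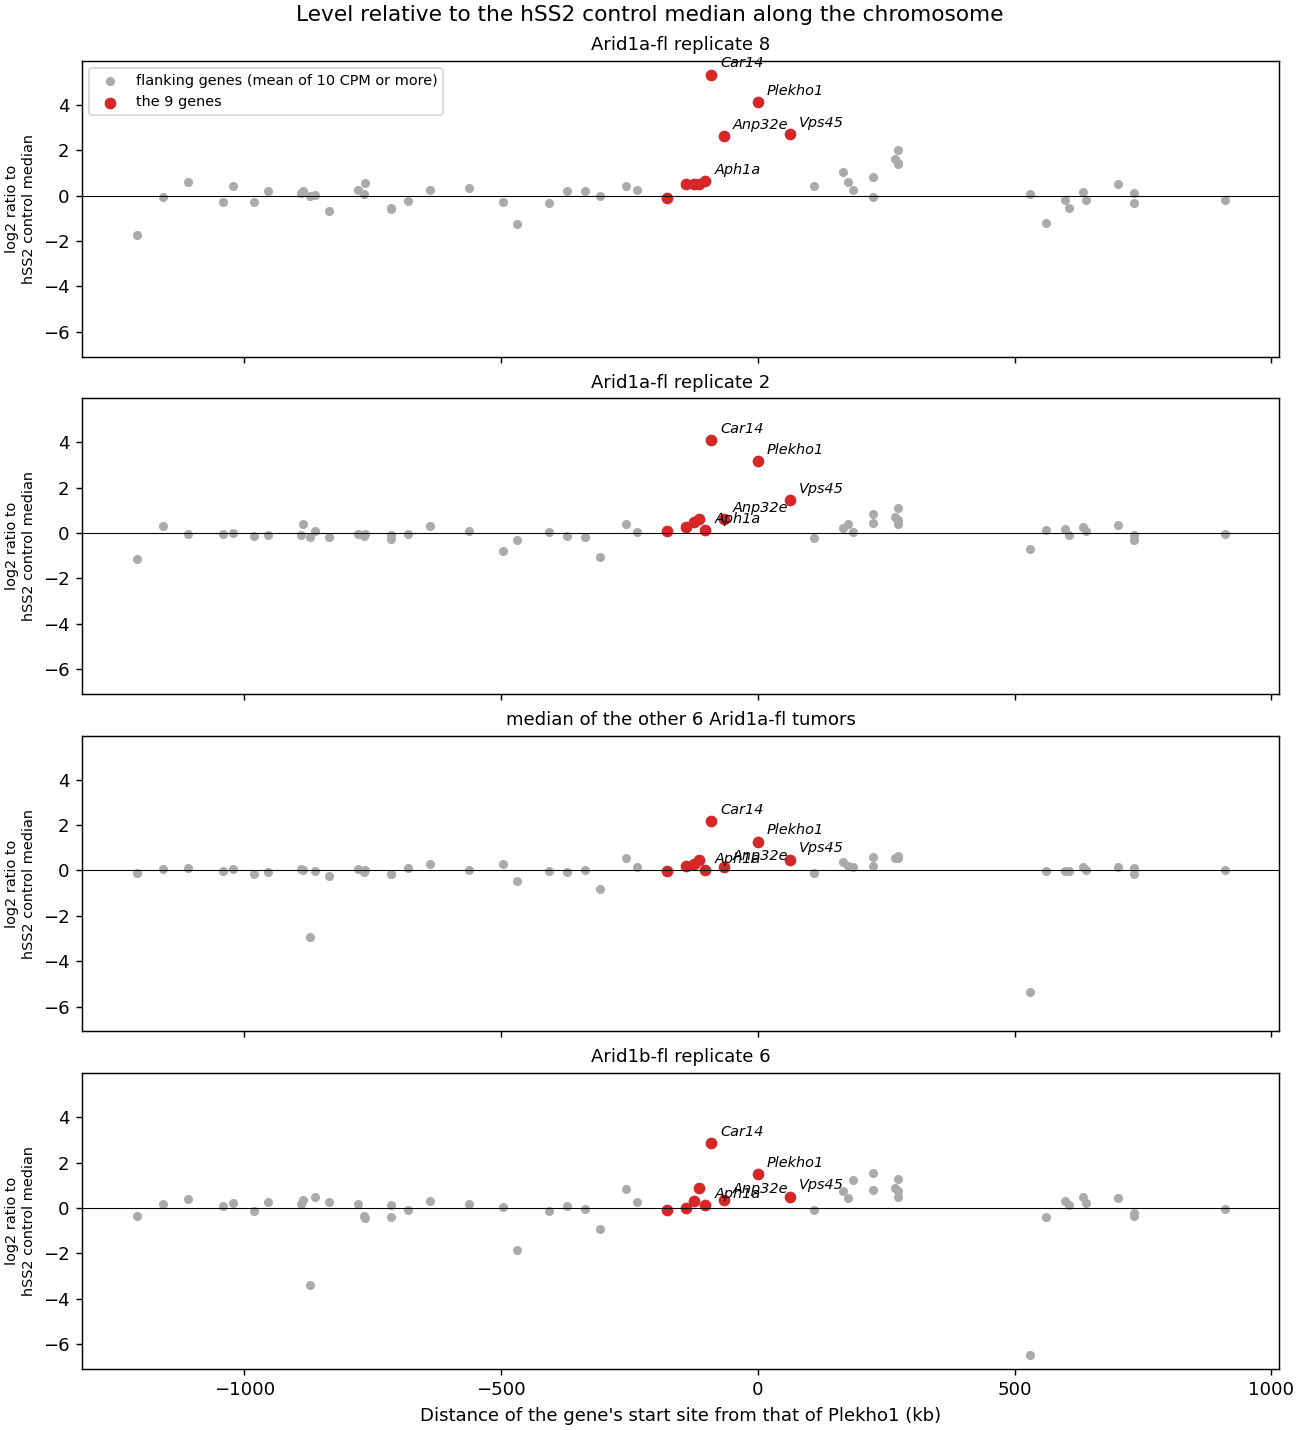
Log2 ratio to the hSS2 control median against distance from the start of Plekho1 in kb, in 4 panels: Arid1a-fl replicate 8, Arid1a-fl replicate 2, the median of the other 6 Arid1a-fl tumors and Arid1b-fl replicate 6. Red points are the 9 genes and gray points flanking genes with a mean of at least 10 CPM. In replicate 8, Car14 reaches 5.34 while the flanking genes have a median of 0.11.

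Cell type markers did not set replicates 2 and 8 apart in the same way. The summed level of 6 macrophage markers was 113 CPM in replicate 8 and 154 CPM in replicate 2, within the 59.5 to 590 CPM of the group, with no marker at 0. Replicate 8 was outside the other Arid1a-fl tumors only for the T and B cell markers, at 2.10 CPM against 2.15 to 9.18 CPM. Replicate 2 was above the others for adipocyte markers, at 7.86 CPM, and for endothelial markers, at 361 CPM. Skeletal muscle markers ranged from 1.47 to 9312 CPM over the group, with r = 0.67 for Car14, 0.67 for Plekho1 and 0.55 for Vps45 against their log2 sum. Their part in the result was not tested. In bulk tumors, fewer cells of a type and less RNA per cell cannot be told apart.

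In 1 Arid1b-fl tumor Car14, Plekho1 and Vps45 followed the same order of ratios among themselves. In Arid1b-fl replicate 6, the tumor with low Arid1a, Car14 was at 190 CPM, 7.19-fold over the control median, Plekho1 at 65.1 CPM, 2.80-fold, and Vps45 at 33.7 CPM, 1.41-fold. By that ratio they ranked 84, 589 and 3356 of 20083 genes in this tumor. Ciart, at 1.86-fold and rank 1561, was above Vps45. The other 7 Arid1b-fl tumors were at 9.58 to 56.2 CPM for Car14, 13.3 to 47.2 CPM for Plekho1 and 20.7 to 25.6 CPM for Vps45. This tumor was the highest of its group for all 3 genes, and the lowest for macrophage markers, at 50.5 CPM. It was also below the others for T and B cell markers (1.73 against 2.40 to 11.01 CPM), bone and cartilage markers (267 against 631 to 4159 CPM) and skeletal muscle markers (2.77 against 8.44 to 37751 CPM), and the part of those cells was not tested. hSS2 control replicate 9, the control with low Arid1a, was at 21.4 CPM for Car14, 22.5 CPM for Plekho1 and 20.6 CPM for Vps45, each within the range of the other controls. In Arid1b-fl replicate 6 the 48 flanking genes had a median log2 ratio of 0.16 with 3 genes over 1.

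Disruption of Arid1b, which encodes the alternative CBAF subunit, was compared with control, and no difference was called among the 9 genes. Arid1b levels overlapped those of the controls, as given above, and Arid1b-fl tumors were not tested against Arid1a-fl tumors. The mean ± SD of Car14 was 47.8 ± 59.3 CPM over 8 Arid1b-fl and 29.97 ± 19.8 CPM over 13 control tumors, with Plekho1 at 32.3 ± 18.1 against 24.4 ± 8.60 CPM, and Vps45 at 24.7 ± 3.996 against 22.4 ± 5.10 CPM. By edgeR's quasi-likelihood test with Benjamini-Hochberg adjustment, 0 of 9 genes passed 0.05, where 0.0548% of all genes tested did. An unadjusted p under 0.05 was seen for 0 of 9 genes and 6.22% of all genes, and DESeq2 called 0 of 9 genes and 0.0603% of all genes. Adjusted p ranged from 0.801 to 0.996. The log2 difference was 0.68 (SE 0.56) for Car14, 0.40 (SE 0.37) for Plekho1 and 0.14 (SE 0.22) for Vps45, and without replicate 6 it was -0.12, 0.18 and 0.06. Mrps21 had the smallest unadjusted p of the 9, with a difference of 0.22 (SE 0.11) and an adjusted p of 0.801. The median difference was 0.05 over the 9 genes and 0.00 over all genes.

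Disruption of Pbrm1 in hSS2, which removes a PBAF subunit, gave no called difference among the 9 genes either. Plekho1 was at 36.7, 26.5, 12.8, 14.6, 16, 23.2, 8.32 and 9.64 CPM in Pbrm1-fl replicates 1 to 8, with 3 tumors below every control. Vps45 was at 23.6, 24.2, 25.3, 28.8, 26.6, 26.2, 29.7 and 29.7 CPM, and 7 of 8 tumors were above the control median. Car14 was at 9.15, 15.8, 4.43, 77.4, 67.5, 31, 38.1 and 90.2 CPM, and so ran from near the lowest control to above the highest, at 67.8 CPM. By edgeR, 0 of 9 genes were called where 7.35% of all genes tested were. An unadjusted p under 0.05 was seen for 1 of 9 genes and 22.4% of all genes, and DESeq2 called 0 of 9 genes and 8.78% of all genes. Adjusted p ranged from 0.167 to 0.732. The gene with the unadjusted p of 0.0293 was Ciart, with a log2 difference of -0.98 (SE 0.43), which was 0.03 against the 4 controls of the same mouse number range and -0.13 without control replicates 12 and 13. The difference was 0.48 (SE 0.56) for Car14, -0.40 (SE 0.38) for Plekho1, 0.26 (SE 0.22) for Vps45 and 0.20 (SE 0.22) for Anp32e. The 4 remaining genes, Aph1a, Mrps21, Prpf3 and Rprd2, were at 0.11, 0.11, -0.10 and -0.05. The median was 0.11 over the 9 genes and -0.00 over all genes.

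In hSS1, Anp32e was the gene with the smallest p of the 9. It was at 58.4, 75.2, 81.0 and 69.0 CPM in Pbrm1-fl tumors against 109, 92.3, 108, 125 and 92.7 CPM in controls. Rprd2 was at 234, 224, 223 and 221 CPM against 185, 205, 186, 200 and 199 CPM. By edgeR, 0 of 9 genes were called where 0.00562% of all genes tested were, and 2 of 9, these same genes, had an unadjusted p under 0.05, as did 17.2% of all genes. The log2 difference was -0.57 (SE 0.14) for Anp32e with an adjusted p of 0.129 and 0.21 (SE 0.09) for Rprd2 with an adjusted p of 0.273. DESeq2 called both, with adjusted p of 0.0156 and 0.0364, in a test that called 6.27% of all genes. Reads of Anp32e can be shared with Gm43375 as given above. Summed fibroblast and matrix markers were at 2067 to 5927 CPM in hSS1 Pbrm1-fl tumors and 450 to 2170 CPM in hSS1 controls. Proliferation markers were at 502 to 1209 CPM and 799 to 2026 CPM. The part of these differences in tumor content was not tested.

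Car14, Plekho1 and Vps45 were not called in hSS1. Car14 was at 27.2, 6.16, 26.3 and 4.49 CPM in Pbrm1-fl tumors against 30.5, 57.7, 40.5, 21.3 and 31 CPM in controls, a log2 difference of -1.18 (SE 0.57) with an edgeR adjusted p of 0.328. All 4 tumors were below the control median. Plekho1 was at 15.4, 14.5, 10.2 and 22.3 CPM against 12.2, 18.3, 20.1, 20.4 and 14.2 CPM, a difference of -0.13 (SE 0.26). Vps45 was at 28.4, 22.7, 25.1 and 28.8 CPM against 20.5, 16.1, 21.8, 25.3 and 30.03 CPM, a difference of 0.21 (SE 0.19). The groups overlapped for all 3 genes. Prpf3, Aph1a, Mrps21 and Ciart had differences of 0.19, 0.15, -0.18 and -0.33. The median was -0.13 over the 9 genes and 0.01 over all genes.

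The effect of Pbrm1 disruption was not shown to differ between hSS1 and hSS2 for any of the 9 genes. The paper reports that Pbrm1 was depleted less in hSS1 than in hSS2. Its mean here was 197 against 332 CPM in hSS1 and 104 against 250 CPM in hSS2 (Pbrm1-fl against control). The part of this unequal loss was not tested. In the interaction over all 46 tumors, edgeR called 0 of 9 genes where 2.86% of all genes tested were called, and DESeq2 called 0 of 9 genes and 4.85% of all genes. An unadjusted p under 0.05 was seen for 2 of 9 genes and 18.9% of all genes. These were Rprd2, at 0.25 (SE 0.12, adjusted p of 0.232), and Anp32e, at -0.78 (SE 0.38, adjusted p of 0.256), both as the hSS1 effect minus the hSS2 effect on the log2 scale. Car14 was at -1.67 (SE 1.00) and Plekho1 at 0.27. The median was 0.03 over the 9 genes and 0.02 over all genes.

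Put in order of mean level, Plekho1 had a mean ± SD of 117 ± 130 CPM over the 8 Arid1a-fl tumors of hSS2, 32.3 ± 18.1 CPM in Arid1b-fl, 24.4 ± 8.60 CPM in control and 18.5 ± 9.67 CPM in Pbrm1-fl tumors. Neither Arid1b-fl nor Pbrm1-fl tumors were separated from control by edgeR, with adjusted p of 0.920 for Arid1b-fl and 0.573 for Pbrm1-fl. Vps45 was at 52.9 ± 43.8, 26.8 ± 2.42, 24.7 ± 3.996 and 22.4 ± 5.10 CPM in Arid1a-fl, Pbrm1-fl, Arid1b-fl and control tumors. The adjusted p against control was 0.534 for Pbrm1-fl and 0.966 for Arid1b-fl. Car14 was at 280 ± 342, 47.8 ± 59.3, 41.7 ± 32.8 and 29.97 ± 19.8 CPM in Arid1a-fl, Arid1b-fl, Pbrm1-fl and control tumors, with adjusted p against control of 0.898 and 0.659 for Arid1b-fl and Pbrm1-fl. In the hSS1 table, scaled separately, Plekho1 was at 17.1 ± 3.66 CPM (SD, n = 5) in control and 15.6 ± 5.01 CPM (SD, n = 4) in Pbrm1-fl tumors.

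Co-variation of the 3 genes differed by sign from group to group. In Arid1a-fl tumors, Pearson's r of log2 CPM was 0.95 for Plekho1 with Vps45, 0.98 for Plekho1 with Car14 and 0.93 for Vps45 with Car14 (n = 8), a description since these tumors chose the genes. Leaving out the 2 tumors farthest from the median, r was 0.61, 0.85 and 0.18. In controls (n = 13) r was 0.25, -0.83 and -0.06, so that Plekho1 and Car14 ran opposite to each other there. Over the 9 hSS1 tumors r was -0.02, -0.20 and -0.45. No test of a difference in r between groups was run.

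**Figure D4:**
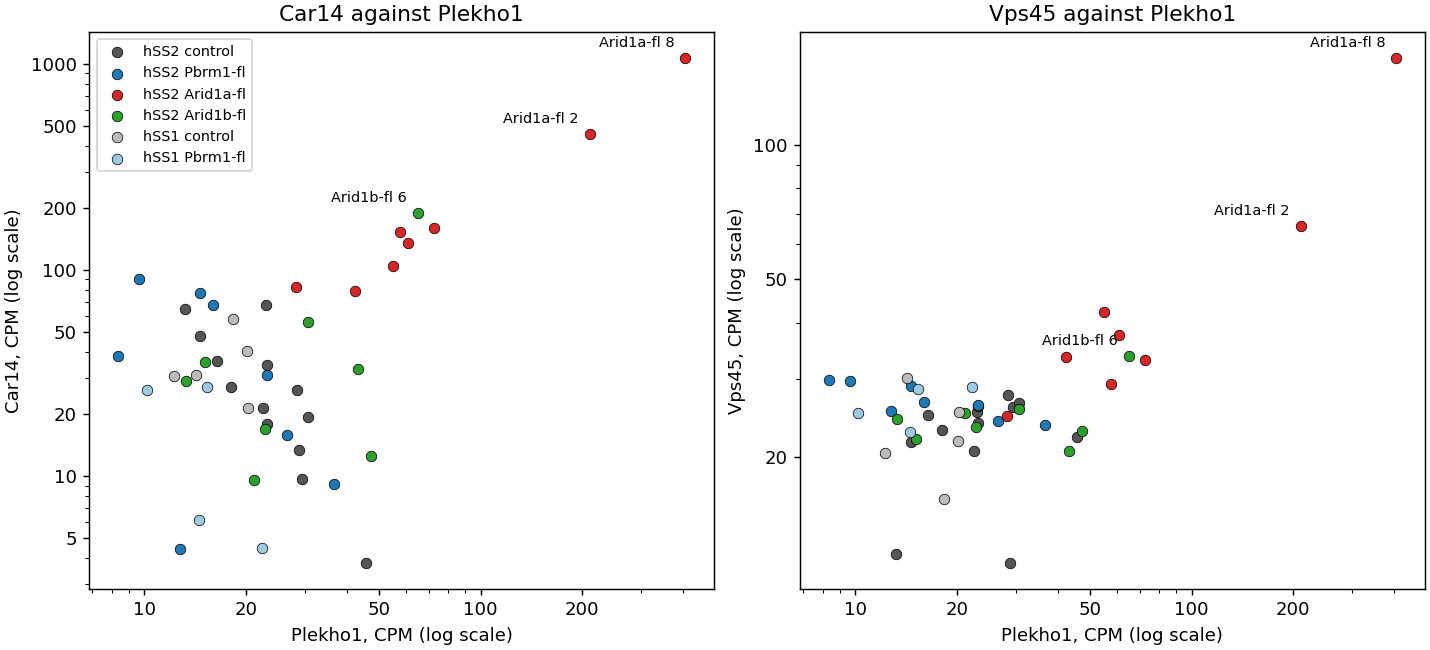
Car14 and Vps45 against Plekho1 in 46 tumors. Both axes are CPM on a log scale and each point is a tumor, colored by group. Arid1a-fl tumors run from low to high together, with r = 0.98 for Car14, whereas the controls run the opposite way for Car14, with r = -0.83.

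In Pbrm1-fl tumors the opposite course of Plekho1 and Vps45 was tested. Pearson's r was -0.87 (exact permutation test, two-sided, p = 0.00702, adjusted over 6 relations 0.0421, n = 8), and leaving out 1 tumor at a time ended the call in 6 of 8 cases. Spearman's rho was -0.86 and did not pass after adjustment (exact permutation test, adjusted p = 0.0643, n = 8). Without the 2 tumors farthest from the median Plekho1 level r was -0.73. Of 20081 other genes, 3.78% had an r with Plekho1 at or below that of Vps45 in these 8 tumors. Vps45 with Car14 had r = 0.76 (exact permutation test, adjusted p = 0.102, n = 8), and Plekho1 with Car14 r = -0.43 (exact permutation test, adjusted p = 0.337, n = 8). All 8 tumors came from 1 mouse number range.

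In Arid1b-fl tumors none of the 3 relations passed. Pearson's r was 0.41 for Plekho1 with Vps45 and 0.42 for Plekho1 with Car14 (exact permutation test, adjusted p = 0.337 each, n = 8). For Vps45 with Car14 it was 0.66 (exact permutation test, adjusted p = 0.179, n = 8). Without replicate 6, r was -0.32, -0.11 and -0.09, so that the positive sign rested on that tumor.

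Over all 36 pairs of the 9 genes, the median r was -0.06 in controls, 0.31 in Pbrm1-fl, 0.40 in Arid1a-fl and 0.33 in Arid1b-fl tumors. The highest pair was Mrps21 with Vps45 in controls, at 0.73, and Prpf3 with Anp32e in Pbrm1-fl tumors, at 0.86. The lowest was Ciart with Vps45 in controls, at -0.89, and Anp32e with Plekho1 in Pbrm1-fl tumors, at -0.92. In Arid1b-fl tumors the highest was Car14 with Anp32e, at 0.83.

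Plekho1 moved with several of the cell type marker lists in 2 of the hSS2 groups. Its log2 CPM had r = 0.84 with the log2 summed level of 6 macrophage markers in controls (n = 13) and r = 0.97 in Pbrm1-fl tumors (n = 8). In the latter group it also had r = 0.97 with T and B cell, 0.96 with neutrophil, 0.95 with adipocyte and 0.91 with fibroblast and matrix markers. Skeletal muscle markers were at 12616, 5815 and 11539 CPM in Pbrm1-fl replicates 1, 2 and 6, those with the most Plekho1. They were at 3.65 to 309 CPM in the other Pbrm1-fl tumors. Car14 ran the other way in controls, with r = -0.78 for macrophage, -0.86 for T and B cell and -0.82 for fibroblast markers. Vps45 had r = -0.79 with macrophage and -0.93 with fibroblast markers in Pbrm1-fl tumors. These values are descriptions over tumors that share library depth and composition, and their part in the co-variation was not tested.

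In Arid1a-fl tumors, Plekho1 had r = -0.25 with the macrophage markers, and -0.09 without replicate 8. In Arid1b-fl tumors it had r = 0.16, and 0.89 without replicate 6, which combined the highest Plekho1 level of its group with the fewest macrophage transcripts. In hSS1 r was -0.48 over 9 tumors. The summed macrophage level ranged from 62.5 to 546 CPM in controls, 37.8 to 725 CPM in Pbrm1-fl and 50.5 to 826 CPM in Arid1b-fl tumors. All 6 markers were detected in each hSS2 group.

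**Figure D5:**
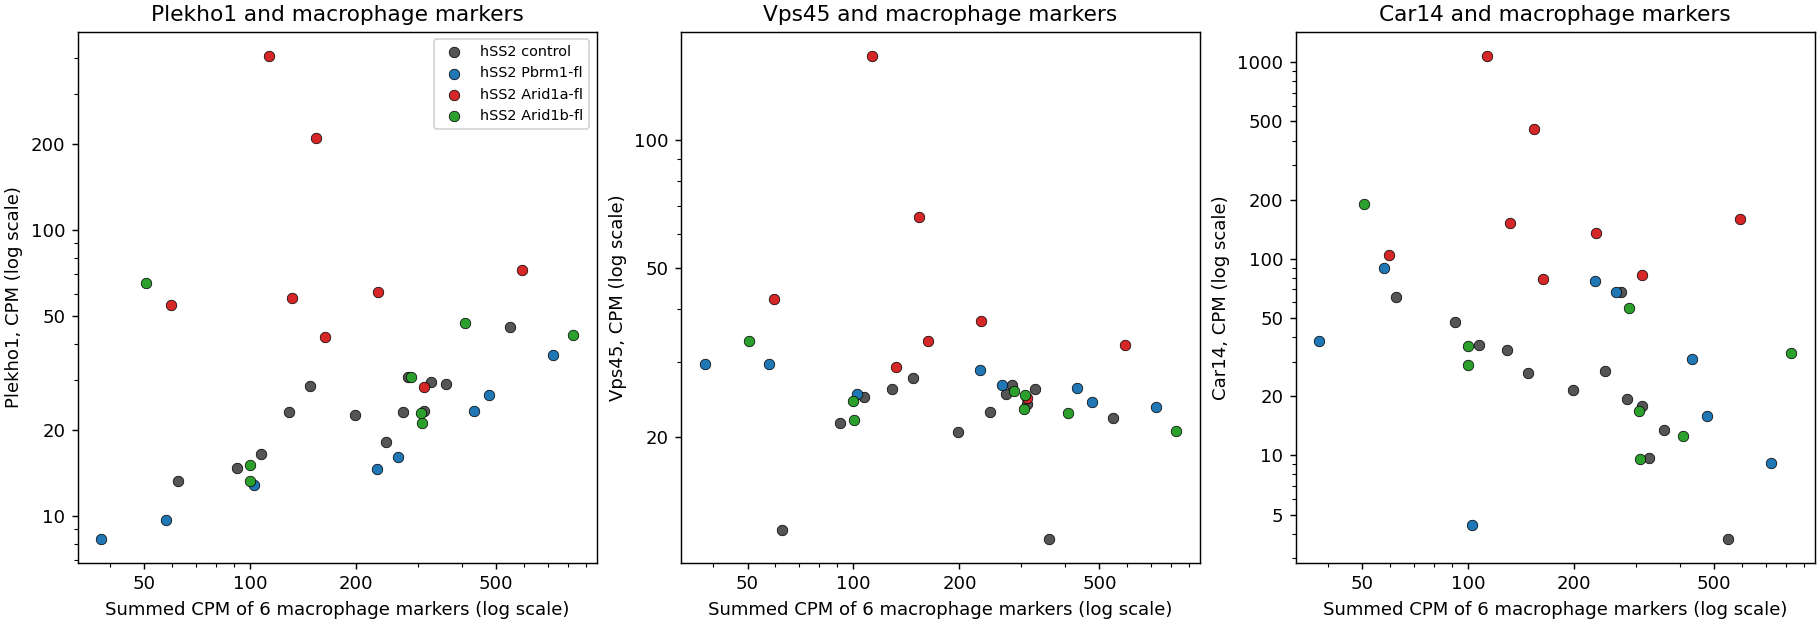
Plekho1, Vps45 and Car14 against the summed level of 6 macrophage markers in the 37 hSS2 tumors. Both axes are CPM on a log scale and each point is a tumor, colored by group. Plekho1 follows the markers in controls (r = 0.84) and in Pbrm1-fl tumors (r = 0.97), whereas Arid1a-fl replicates 2 and 8 lie above with 154 and 113 CPM of macrophage markers.

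Ciart was high in 2 control tumors. It was at 30.4 and 26.1 CPM in hSS2 control replicates 12 and 13, at 10.8 CPM in replicate 9 and at 1.69 to 7.04 CPM in the other 10 controls. In replicates 12 and 13, 6 of 18 other clock genes were also above all other 11 controls, as were 8.50% of all genes tested. These tumors also had the lowest summed levels of proliferation markers of the controls, at 112 and 196 CPM against 232 to 1325 CPM. Replicate 12 was below all other controls for macrophage, neutrophil and bone and cartilage markers, at 62.5, 0.792 and 114 CPM, and replicate 13 was above them for epidermis markers, at 5.45 CPM. The part of these cells in the result was not tested. Nr1d1, the clock repressor REV-ERB alpha, was at 212 and 187 CPM against 20.5 to 105 CPM, and Per1 at 383 and 484 CPM against 95.9 to 215 CPM. Both belong to the 6 clock genes above the other controls, with Cry1, Cry2, Bhlhe41 and Arntl. Per2, Per3, Nr1d2, Dbp, Tef and Hlf were among the clock genes that were not above them. Vps45 was lowest of the controls in these tumors, at 12.2 and 11.6 CPM. Over 37 hSS2 tumors, Ciart had r = 0.66 with Cry2, 0.58 with Cry1 and 0.54 with Per2, and the median over the 18 clock genes was 0.35. Without the 2 tumors the median was 0.06. Time of collection is not given in the labels. Without them, the Arid1a-fl difference was 3.30 for Car14, 2.22 for Plekho1, 1.12 for Vps45 and 0.66 for Ciart.

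Lists of genes that work with the 9 encoded proteins were examined next, and few of their members were called in Pbrm1-fl hSS2 tumors. Of 18 clock genes with Ciart, 3 fell by edgeR, where 3.95% of all genes were called lower: the clock repressors Cry2 by a log2 value of -0.61 (adjusted p of 0.0113) and Per2 of -0.70 (adjusted p of 0.0203), and the output regulator Hlf of -1.09 (adjusted p of 0.0117). Cry2 was below the control median in 8 of 8 tumors. Against the 4 controls of the same mouse number range none of these 3 was called, with adjusted p of 0.202, 0.165 and 0.0602 for Cry2, Per2 and Hlf. Per2 was also not called without control replicates 12 and 13 (adjusted p of 0.0560).

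Of 29 genes of the small mitochondrial ribosomal subunit with Mrps21, 2 rose in Pbrm1-fl hSS2 tumors by edgeR, where 3.4% of all genes were called higher. Dap3 rose by 0.26 (adjusted p of 0.0248) and Mrps16 by 0.31 (adjusted p of 0.0383). Without the filter on low counts neither was called (0.0599 and 0.0843). Against controls of the same range Dap3 was called (0.0296) and Mrps16 was not (0.591). The same held without control replicates 12 and 13 (0.00591 and 0.0853). Of 17 spliceosome genes with Prpf3, 1 rose, Prpf31 by 0.39 (adjusted p of 0.0459), which was not called in the same range (0.623) or without those replicates (0.0924). Of 15 carbonic anhydrase genes besides Car14, 12 were tested. Car7 rose by 0.93 (adjusted p of 0.00421), from 1.55 ± 0.528 to 2.96 ± 0.905 CPM, and Car4 fell by 2.64 (adjusted p of 0.00995), from 2.84 ± 2.94 to 0.460 ± 0.262 CPM. None was called of 6 gamma-secretase genes, 16 endosomal SNARE and Sec1/Munc18 genes, 6 Plekho1 partners, 10 genes of H2A.Z exchange and 6 of the polymerase tail. The smallest p in those lists belonged to Aph1c (-0.28, adjusted p of 0.501), Vamp4 (-0.23, 0.0651), Smurf1 (-0.14, 0.402), Ruvbl2 (0.49, 0.0911) and Ssu72 (0.24, 0.141).

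In the interaction, 5 partner genes were called lower in hSS1 than in hSS2 as a Pbrm1-fl effect, where 1.16% of all genes were called lower by edgeR. Of 10 H2A.Z exchange genes these were 2, Anp32a at -0.69 (adjusted p of 0.0224) and Ruvbl1 at -1.14 (0.0334). Of 17 spliceosome genes it was 1, Lsm3 at -1.07 (0.0256). Of 29 mitochondrial ribosome genes they were 2, Mrps35 at -0.78 (0.0418) and Mrps14 at -1.01 (0.0472). With controls of the same mouse number range, Ruvbl1 (0.188), Mrps35 (0.105) and Mrps14 (0.230) were not called. Without the filter on low counts those genes (0.0617, 0.0866 and 0.0947) and Lsm3 (0.0507) were not called, and Anp32a was. The part of the unequal marker levels of the hSS1 groups, given above, was not tested. In the lists with no call the smallest p belonged to Psen2 (-0.35, 0.258), Rbsn (-0.49, 0.134), Psmc5 (-0.28, 0.541), Clock (0.51, 0.111), Ssu72 (-0.23, 0.523) and Car4 (3.49, 0.0593).

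None of the partner genes was called by edgeR in Arid1b-fl or in hSS1 Pbrm1-fl tumors, where 0.0548% and 0.00562% of all genes were called. In Arid1b-fl tumors the smallest p of each list belonged to Aph1b (-0.33, adjusted p of 0.697), Rbsn (-0.17, 0.847), Csnk2a1 (0.10, 0.833), Hlf (-0.55, 0.794), Prpf6 (0.13, 0.801), Mrps6 (-1.06, 0.745), Znhit1 (0.31, 0.806), Polr2a (-0.13, 0.924) and Car5b (-0.75, 0.768). In hSS1 it belonged to Ncstn (-0.43, 0.477), Rbsn (-0.46, 0.122), Csnk2a2 (0.13, 0.788), Dbp (0.51, 0.165), Lsm3 (-0.93, 0.111), Mrps14 (-0.93, 0.111), Ruvbl1 (-0.90, 0.0958), Rpap2 (0.20, 0.593) and Car5b (1.36, 0.214). In Arid1a-fl tumors, the contrast that chose the 9 genes, edgeR called 3.17% of all genes, and 1.41% higher. Called higher were 1 of 12 carbonic anhydrase genes tested, Car12 at 4.03, and 1 of 29 mitochondrial ribosome genes, Mrps2 at 0.42. So were 3 of 10 H2A.Z exchange genes, Anp32a at 0.36, Ruvbl2 at 0.67 and Anp32b at 0.51. Called lower were 2 of 18 clock genes, Per1 at -0.92 and Bhlhe41 at -1.34. Of these 7 genes, 1 was called without replicates 2 and 8 and 1 without the filter, Car12 in both cases, and 2 without control replicates 12 and 13, Car12 and Mrps2. Against controls of the same mouse number range 6 were called, all but Mrps2 (edgeR adjusted p of 0.0796). Car12, another membrane-bound carbonic anhydrase, had a mean ± SD of 12.1 ± 21.2 CPM over the 8 Arid1a-fl tumors where the 13 controls had 0.735 ± 0.446 CPM.

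Few flanking genes within 1 Mb were called. In Pbrm1-fl hSS2 tumors edgeR called 4 of 90, or 4.44%, below the 7.35% of all genes. Ctsk, the protease cathepsin K, fell by 2.32 on the log2 scale (SE 0.55, adjusted p of 0.00772), from 92.7 ± 48.1 to 18.7 ± 26.8 CPM, with 8 of 8 tumors below the control median. It was not called against controls of the same range (adjusted p of 0.187). Selenbp1 fell by 2.18 (adjusted p of 0.0218), and Anxa9 and 6330562C20Rik rose by 0.91 and 0.90 (adjusted p of 0.0202 and 0.0152). Against controls of the same range Anxa9 and 6330562C20Rik were not called (adjusted p of 0.347 and 0.299), while Selenbp1 was (0.0459). In the interaction Ctsk was the 1 gene called of 94, where 2.86% of all genes were called. It was at 3.99 (SE 0.99, edgeR adjusted p of 0.0221) and was not called there with same-range controls (3.34, adjusted p of 0.110). None of 90 was called in Arid1b-fl tumors, where Hist2h2aa2 had the smallest p (1.58, adjusted p of 0.647), and none of 81 in hSS1, where Pias3 did (0.66, adjusted p of 0.111). Of all genes, 0.0548% were called in Arid1b-fl and 0.00562% in hSS1 Pbrm1-fl tumors.

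The genes whose levels most resembled those of the 3 leading genes over the 37 hSS2 tumors lay mostly elsewhere in the genome. Among 17278 genes, Htr2a (r = 0.80), Gstm2 (0.79), Hoxd1 (0.78), Ptx3 (0.78) and Car12 (0.75) were most like Plekho1 on log2 CPM. Without Arid1a-fl replicates 2 and 8 those values were 0.63, 0.75, 0.63, 0.70 and 0.45, and over the 9 hSS1 tumors 0.35, -0.61, 0.35, 0.31 and 0.14. Vps45 had r = 0.71 with Plekho1 (rank 12) and Car14 r = 0.54 (rank 216), values that include the Arid1a-fl tumors that chose these genes. Without replicates 2 and 8 they were 0.32 and 0.20, and over the hSS1 tumors -0.02 and -0.20. For Car14, the most like genes were Raly (0.80), Dock4 (0.76), Neurog3 (0.74), Fam241b (0.74) and Fgfr2 (0.73). Without those replicates they had r = 0.72, 0.78, 0.68, 0.70 and 0.67. Over the hSS1 tumors these had r = -0.38, -0.09, 0.19, -0.30 and -0.13. Among its neighbors, Anp32e (0.68), Vps45 (0.68) and Aph1a (0.64) ranked 18, 19 and 47 for likeness to Car14. Without those replicates they had r = 0.55, 0.44 and 0.52, and over the hSS1 tumors 0.44, -0.45 and 0.38. Plekho1 ranked 286, and Prpf3, Mrps21, Ciart and Rprd2 from 2051 to 9939.

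For Vps45, its neighbor Anp32e had r = 0.79 over the 37 tumors (rank 1), but 0.38 without Arid1a-fl replicates 2 and 8 and -0.39 over the 9 hSS1 tumors. Outside the 9 genes Tars (0.79), Cep290 (0.77), Stn1 (0.77), Tcf7l2 (0.76) and Stx2 (0.75) were most like it. Without those replicates their values were 0.41, 0.73, 0.81, 0.69 and 0.66, and over the hSS1 tumors 0.72, 0.47, 0.93, 0.68 and 0.47. These correlations are descriptions over tumors that share library composition and include the group differences.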

How the data were processed

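RNA was measured in 46 whole tumors, 1 mouse each. The authors deposited gene counts per tumor in one table for hSS2 and one for hSS1. Per the submitters' processing notes and the study's methods, ribosomal RNA was depleted, libraries were stranded, and reads were aligned to mm10 with STAR 2.7.11 and counted with featureCounts 1.6.3. The strand setting, the handling of multi-mapped reads and the annotation release are not given in the sources used here. Reads of overlapping genes can therefore not be assigned with certainty.

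From the deposited counts, genes were filtered with filterByExpr and tested with edgeR 4.0.16 in R 4.3.3 (robust quasi-likelihood, TMM, Benjamini-Hochberg over all genes, threshold 0.05): 20083 genes in 37 hSS2 tumors, 17786 in 9 hSS1 tumors and 21725 in the interaction over 46. The fit was tested on simulated counts. Log2 CPM used a prior count of 2. Correlations within Pbrm1-fl and Arid1b-fl tumors had exact two-sided permutation p-values. Log2 sums of marker levels were taken after adding 1. Gene positions came from GENCODE M21 and promoters from RefSeq. The promoter of Plekho1 is not reported here.

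The 9 genes, the lists and the tests were chosen with earlier results of these data known. Named are the 9 genes, each called partner or flanking gene (else the one with the smallest p), and the 5 genes most like each leading gene. Other flanking or clock genes given, and the tumors singled out, were chosen after their values were seen. Alternatives were DESeq2 1.42.0 (the study's tool), its size factors in edgeR, no filter, a prior count of 0.5, controls of the same mouse number range (under 1000, 1000 to under 2000, and above), and leaving out each tumor. Depth was 10.1 to 21.3 M counts per tumor. Labels show separate mice per group, so p-values measure the spread between mice. The paper reports that littermates served as controls. The labels do not give the litters, so the tests treat all mice as independent.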

Additional observations from a re-analysis of the deposited data

Results flagged for a closer look

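In groups of 4 to 10 tumors, a tumor was marked where its gap to the nearest other tumor was over Dixon's 95% limit as a share of the group's range. For normally distributed values chance alone gives this in about 1 set in 20. The limit was applied to CPM without a log transform, so that rate need not hold here. In Arid1b-fl replicate 6, Car14 was at 190 CPM (the other tumors 9.58 to 56.2) and Vps45 at 33.7 CPM (20.7 to 25.6). The following values also passed that limit, but they belong to the contrast that chose the genes and are a description only. In Arid1a-fl replicate 8, Car14 was at 1072 CPM (the other tumors 78.9 to 456), Anp32e at 556 CPM (88.9 to 142), Vps45 at 157 CPM (24.7 to 65.9) and Aph1a at 69.6 CPM (42.1 to 49.5). These 4 sets belong to 1 library and neighboring genes and are not independent of each other. Groups of more than 10 tumors, such as the hSS2 controls, were not examined this way.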

How the results depend on the processing

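No paired analysis was possible because the labels give the groups neither litters nor shared replicate numbers. Over 36 tested differences of the 9 genes, 900 alternative values were computed, of which 2 were called, both by DESeq2 in hSS1 (2 of 9 genes called against 0 by edgeR), and 38 changed sign in 12 differences, none of them called. Against controls of the same mouse number range, the sign changed in Pbrm1-fl hSS2 tumors for Rprd2 (0.0223) and Ciart (0.0337), in Arid1b-fl tumors for Rprd2 (-0.0710), Ciart (0.92), Aph1a (0.13) and Vps45 (-0.0518), and in the interaction for Ciart (-0.39), Aph1a (-0.0377) and Vps45 (0.0841). Rprd2 in Arid1b-fl tumors was at -0.00121 with DESeq2 size factors and -0.000596 with DESeq2. Without hSS2 control replicates 12 and 13, an alternative added after seeing the data like the one without Arid1a-fl replicates 2 and 8, Ciart was at 0.15 in Arid1b-fl tumors, and Ciart, Aph1a and Vps45 were at -0.21, -0.00396 and 0.0676 in the interaction. Leaving out 1 tumor at a time, values that changed sign ranged in Arid1b-fl tumors from -0.00943 to 0.0825 for Anp32e, -0.10 to 0.00334 for Aph1a, -0.12 to 0.83 for Car14 and -0.0280 to 0.0300 for Rprd2. They ranged in the interaction from -0.10 to 0.13 for Aph1a and -0.14 to 0.0753 for Vps45, and in hSS1 from -0.34 to 0.0395 for Plekho1. In Arid1b-fl tumors r ranged from -0.11 to 0.65 for Plekho1 with Car14, -0.32 to 0.65 for Plekho1 with Vps45 and -0.0912 to 0.81 for Vps45 with Car14. In Pbrm1-fl tumors r of Plekho1 with Vps45 ranged from -0.96 to -0.81 and no longer passed in 6 of 8 cases, with exact permutation adjusted p from 0.0155 to 0.108. In Arid1a-fl tumors the difference of Car14 ranged from 2.48 to 3.39, of Plekho1 from 1.63 to 2.40, of Vps45 from 0.76 to 1.34 and of Anp32e from 0.32 to 1.00, lowest without replicate 8 each time.

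Counts of genes called moved by more than 1.5 times in each comparison. In Pbrm1-fl hSS2 tumors 1476 genes became 526 against same-range controls and 2282 by DESeq2. In Arid1b-fl tumors 11 became 27 without the filter, 0 against same-range controls, 18 by DESeq2 and 6 (without Arid1b-fl replicate 5) to 15 with 1 tumor left out. In Arid1a-fl tumors 637 became 243 without the filter, 1446 against same-range controls, 1740 by DESeq2, 14 without replicates 2 and 8, and 217 without control replicates 12 and 13; leaving out 1 tumor moved it by more than 1.5 times in 13 of 21 cases, from 56 (without Arid1a-fl replicate 8) to 1416 (without Arid1a-fl replicate 6). In hSS1, 1 became 1244 by DESeq2, 0 against same-range controls and 0 to 4 with 1 tumor left out, highest without control replicate 5. In the interaction 622 became 402, 164 and 1160 without the filter, against same-range controls and by DESeq2, and 235 (without hSS1 control replicate 3) to 876 (without hSS2 Pbrm1-fl replicate 1) with 1 tumor left out. The causes were not tested.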
